A study of Mus musculus with 6 samples.

Results

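Cytochrome P450 enzymes are haem proteins that put oxygen into lipids, steroids and foreign compounds, using electrons passed on by a shared reductase. The liver is their main site, and mouse liver carries several families that grew by tandem duplication, so that neighbouring genes encode closely related enzymes. Many of them are held at their level by nuclear receptors, by liver transcription factors and by the pattern of growth hormone release, which sets some genes higher in one sex. Some, such as Cyp2e1 and Cyp1a2, are known targets of the Wnt/β-catenin pathway in the hepatocytes around the central vein. Only Cyp2e1 and Cyp1a2 are set aside here.

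The genes described are the P450 genes other than Cyp2e1 and Cyp1a2 that the authors' table of differing probes names. Of the 2280 mRNA probes in that table, 2239 matched a gene symbol by RefSeq accession, for 2114 genes in all, and 18 of these were P450 probes. Leaving out 2 gave 16 members, each with 1 probe, against 99 protein-coding P450 genes in the RefSeq gene list. They fell into Cyp2a (3 members of 4 genes), Cyp2c (7 of 15), Cyp2d (2 of 8), Cyp3a (1 of 9), Cyp4a (2 of 8) and Cyp4f (1 of 9). No member came from any other P450 family. None of the 19 listed P450 genes of sterol, bile acid, steroid, vitamin D and retinoid metabolism was named there. A gene that the table does not name was not analysed here, whatever its level.

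The study profiled non-coding RNA to find transcribed ultraconserved regions that respond to the Wnt pathway, and the same arrays carry mRNA probes. Liver RNA of Apcfl/fl mice, labelled as hepatocellular carcinoma (HCC), was set against normal liver of Apc+/+ mice, with 3 arrays per group and both groups on the C57Bl/6 background at 12 months. The Apcfl/fl mice carried the hypomorphic Apc580s allele on both chromosomes, which lowers Apc, a brake on β-catenin, and the methods name no Cre driver for them. The level of Apc itself was not analysed here, and the labels give no sex. These are bulk samples of liver tissue, in which fewer cells of a type and less RNA per cell cannot be told apart.

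Levels below are the authors' log2 intensities, quantile normalised between arrays. Changes are Apcfl/fl minus Apc+/+ on the log2 scale, with a standard error (SE) and an adjusted p, from a limma fit to the scanner intensities of all 45640 tested probes. A probe was called at an adjusted p under 0.05 with at least a 2-fold difference. Between Apcfl/fl replicates 1 and 2 the difference was smaller than the technical noise (mean chi-square 0.774), and they were counted as 1 sample, while the other pairs of arrays had a mean chi-square between 1.99 and 15.1. The comparison therefore held 2 samples against 3. The study's methods give 3 livers per group, and the p-values measure the spread between the samples as counted here. A fit without Apcfl/fl replicate 3, or with it as the only tumour sample, has 1 tumour sample, so its spread comes from the Apc+/+ arrays alone and the tumour sample is assumed to vary like them.

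Among the arrays, 50.8% to 82.8% of probes were well above background. The lowest share belonged to Apc+/+ replicate 2. All 16 P450 probes were well above background on all 6 arrays, none was saturated, and no group mean lay below the brightest negative-control probe. The header codes place Apc+/+ replicate 1 in the slide row of the Apcfl/fl arrays and Apc+/+ replicates 2 and 3 in the other row.

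Of the 16 P450 probes, 7 were higher and 9 lower in Apcfl/fl tissue. The higher ones were all 3 Cyp2a genes, both Cyp4a genes, Cyp4f16 and Cyp2d12. The lower ones were all 7 Cyp2c genes, Cyp2d40 and Cyp3a41a. With 5 samples 8 of the 16 were called, namely Cyp2a4, which rose, and the 7 Cyp2c genes, which fell. The share called among all tested probes was 1.92%, with 1.03% higher and 0.896% lower. In 16 of 16 probes the arrays of the groups did not overlap, against 33.8% of all tested probes. The authors chose the table on these same arrays for a difference between the same groups, so these counts describe the members and nothing is read from them.

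The threshold of the study's methods, a p of 0.05 or less before adjustment and a 2-fold difference, was passed by 16 of 16, against 11.2% of all tested probes. The table was chosen by that threshold on these arrays, so nothing is read from this count. Counted as 6 samples, 15 of 16 were called, against 7.54% of all tested probes, and the exception was Cyp2d12 with an adjusted p of 0.0603. With normexp background correction, the stricter filter on dim probes or trend and robust eBayes, 11 of 16 were called in each, 4 of them higher, with Cyp2a5, Cyp4a12b and Cyp4f16 called beside Cyp2a4. With the slide row as a block, limma called 0 of 16, against 0% of all tested probes, although 13 of 16 had an unadjusted p below 0.05. This block compares the Apcfl/fl arrays with Apc+/+ replicate 1 alone, the single normal array in their row. All 16 kept the direction of their difference, which was fixed in advance since the arrays of the groups did not overlap.

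**Figure D1:**
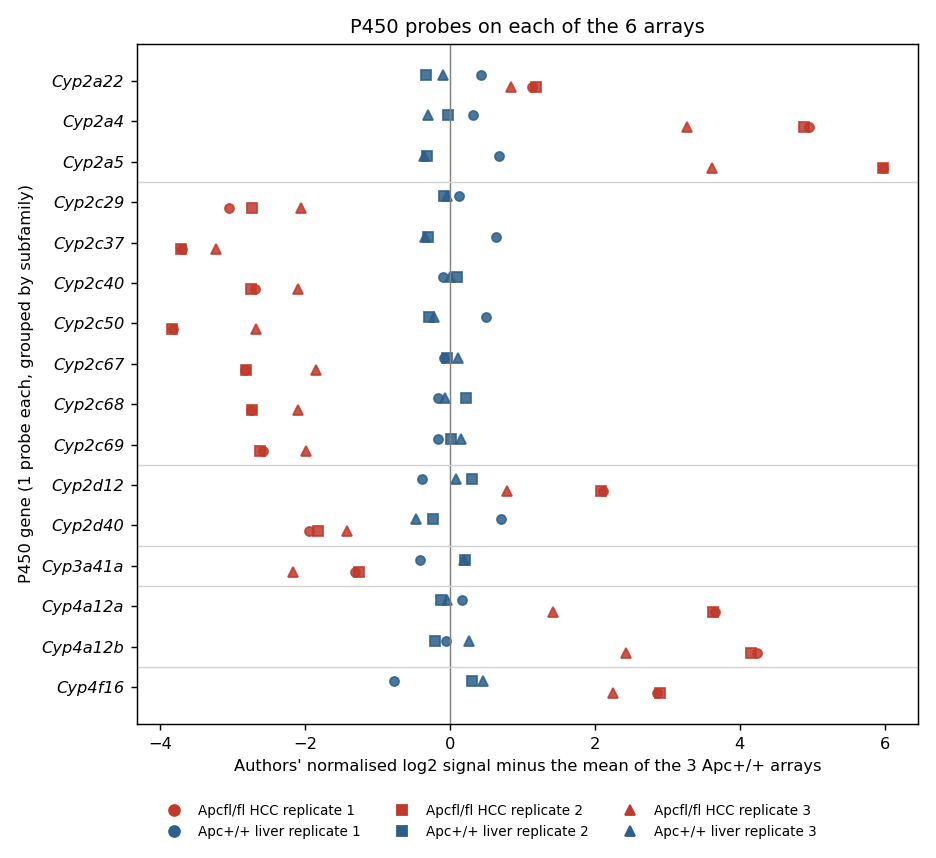
Authors' normalised log2 intensity minus the mean of the 3 Apc+/+ arrays (x axis) for the 16 P450 probes (y axis, grouped by subfamily), with a red symbol for each Apcfl/fl array and a blue one for each Apc+/+ array. In 7 genes every red symbol lies to the right of every blue one and in 9 to the left, and Apcfl/fl replicates 1 and 2 differ by at most 0.32.

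Sequences upstream of the start sites are shown for the marker genes Cyp2a4 and Cyp3a41a and for members with a near-identical copy, to show how alike the control regions of these copies are. They come from RefSeq on GRCm38.p6 and give the 130 bases before each start, 5′ to 3′ on the gene's strand. Windows were used for 13 of the 16 members, and not for Cyp2d12, Cyp4a12a and Cyp4a12b. Capitals mark matches to TATAAA on the gene strand, the letters of a TATA box, and to CAAAGTCCA on either strand, letters favoured by the liver factor HNF4. None of the marked matches overlapped another.
Cyp2a4 (chr7:26307062-26307191, plus strand): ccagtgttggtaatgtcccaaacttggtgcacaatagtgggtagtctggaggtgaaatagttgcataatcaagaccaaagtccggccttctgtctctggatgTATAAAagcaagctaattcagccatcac
Cyp2a5 (chr7:26835209-26835338, plus strand): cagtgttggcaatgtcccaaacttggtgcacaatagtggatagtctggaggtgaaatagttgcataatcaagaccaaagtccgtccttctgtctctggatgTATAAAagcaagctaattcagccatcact
Cyp2c40 (chr19:39812815-39812944, minus strand): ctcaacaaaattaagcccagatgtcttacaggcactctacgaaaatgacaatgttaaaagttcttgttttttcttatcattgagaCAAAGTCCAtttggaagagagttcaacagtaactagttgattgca
Cyp2c68 (chr19:39741102-39741231, minus strand): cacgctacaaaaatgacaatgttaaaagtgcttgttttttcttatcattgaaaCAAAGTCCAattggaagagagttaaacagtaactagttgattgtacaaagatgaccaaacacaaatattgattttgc
Cyp2c69 (chr19:39886770-39886899, minus strand): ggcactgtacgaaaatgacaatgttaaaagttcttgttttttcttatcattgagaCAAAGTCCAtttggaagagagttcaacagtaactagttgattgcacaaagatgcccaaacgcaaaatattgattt
Cyp3a41a (chr5:145720137-145720266, minus strand): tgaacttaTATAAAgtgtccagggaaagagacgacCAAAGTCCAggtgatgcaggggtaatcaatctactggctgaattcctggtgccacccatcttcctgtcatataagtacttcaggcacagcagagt

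Over the 250 bases before the start, Cyp2a4 and Cyp2a5 were 97.6% identical, with 4 mismatches and 2 gap columns in 251 aligned columns. Gap columns count as not identical in these shares. Cyp2c68 and Cyp2c69 were 91.3% identical, with 14 mismatches and 8 gap columns. Cyp2c40 and Cyp2c69 were 77.5% identical, with 3 mismatches and 60 gap columns. Cyp2c40 and Cyp2c68 were 73.1% identical, with 10 mismatches and 66 gap columns. Cyp3a41a differed from its neighbour Cyp3a41b, which is no member, by 1 mismatch in 250 columns. Cyp2c37 and Cyp2c50 were 84.3% identical, with 30 mismatches and 10 gap columns. By contrast, Cyp2a22 shared 51.1% of aligned columns with Cyp2a4.

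The CAAAGTCCA letters stood in 5 of the 13 windows, those of Cyp2c40, Cyp2c67, Cyp2c68, Cyp2c69 and Cyp3a41a, against 0.384% of all 32851 promoter windows of that length. All 5 genes were among the 9 lower ones, but 9 of the 13 windows belonged to lower genes and only 4 to higher ones. The same letters stood before the starts of Cyp2c70 and Cyp3a41b, and not in the 130 bases before the start of Cyp2c38. These relatives are no members, and their changes were not analysed here. The TATAAA letters stood in 6 of 13 windows against 7.59% of all windows, and these were Cyp2a22, Cyp2a4, Cyp2a5, Cyp2c29, Cyp2c67 and Cyp3a41a. Counted from the start, the matches began at -28, -28, -29, -19, -40 and -122 in that order. Whether any of them works as a TATA box was not tested. The TCF/LEF letters CTTTGAT, searched on both strands, stood in the window of Cyp2c29 alone, against 3.21% of all windows. The palindrome TTGCGCAA of the C/EBP factors and the STAT5 letters TTCNNNGAA, also searched on both strands, matched 0 of 13 windows, against 0.164% and 7.02% of all. The motifs were chosen after the changes were known, and the related promoters share descent, so these are not independent matches and no factor's binding was measured.

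In the Cyp2a subfamily, Cyp2a4 and Cyp2a5 had the widest differences of all 16 members, while Cyp2a22 had the smallest. Cyp2a4 hydroxylates testosterone and is known as a female-biased gene of mouse liver. It read 15.79, 15.73 and 14.11 in Apcfl/fl tissue and 11.16, 10.82 and 10.54 in Apc+/+ liver. Every tumour array was far above the normal ones, and Apcfl/fl replicate 3 was the lowest of the tumour arrays. Cyp2a4 rose by 4.30 (SE 0.56, adjusted p 0.0405), a 19.8-fold difference, and it was the single higher P450 gene to be called. Over the alternatives its change ran from 3.44 to 5.17 and its adjusted p from 0.00714 to 0.266. It was not called without Apc+/+ replicate 1, 2 or 3, when 0, 1 and 0 of all tested probes were called.

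Cyp2a5, which hydroxylates coumarin and oxidises nicotine, differs from Cyp2a4 by few amino acids. It read 15.37, 15.37 and 13.01 in Apcfl/fl tissue and 10.07, 9.08 and 9.04 in Apc+/+ liver. The groups were again far apart, with replicate 3 closest to the normal arrays. The change of 4.95 (SE 0.80) was wider than that of Cyp2a4, with a larger SE and an adjusted p of 0.0585. With 1 tumour sample the change was 6.20 without Apcfl/fl replicate 3 and 3.70 with replicate 3 alone. Centred on their Apc+/+ means, the profiles of Cyp2a4 and Cyp2a5 parted by at most 1.09. The probe sequences were not used here, so how far each probe also reads the other transcript was not tested.

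Cyp2a22, the gene next to Cyp2a5 on chromosome 7 and also held to be female-biased, ranged from 12.09 to 12.44 in Apcfl/fl tissue and from 10.92 to 11.68 in Apc+/+ liver. Its change was 1.06 (SE 0.31, adjusted p 0.165), and within the shared slide row it was 0.61. Its centred profile parted from that of Cyp2a5 by up to 4.84 although the genes lie side by side.

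The 7 Cyp2c genes, which encode epoxygenases and hydroxylases of arachidonic acid and of drugs, were lower in every Apcfl/fl array than in any Apc+/+ array, and all 7 fell by the test. Their changes ran from -2.32 to -3.25 with adjusted p between 0.0272 and 0.0470. With each of Apc+/+ replicates 1, 2 and 3 left out in turn, 0 of the 7 were called by limma. Of all 45640 tested probes, 0, 1 and 0 were called in these fits. The highest adjusted p of the 7 genes was 0.114, 0.154 and 0.212. In those fits 15, 15 and 14 of the 16 P450 probes had an unadjusted p below 0.05 with a 2-fold difference, as did 5749, 4540 and 4326 of the 45640 tested probes, and nothing is read from this since the table was chosen by that threshold. Without Apcfl/fl replicate 3, with 1 tumour sample, the range of changes was -2.70 to -3.63, with adjusted p from 0.0479 to 0.0742. Within the shared slide row the changes were -2.24 to -3.90.

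Cyp2c37 and Cyp2c50 fell furthest. Cyp2c37, which makes hydroxylated arachidonic acid, read 6.83, 6.81 and 7.29 in Apcfl/fl tissue and 11.16, 10.22 and 10.17 in Apc+/+ liver. The normal arrays did not sit together, since Apc+/+ replicate 1 stood 0.96 above the other two. The fall was 3.25 on the log2 scale (SE 0.39, adjusted p 0.0359), that is 9.51-fold. Cyp2c50, an epoxygenase, read 7.25, 7.24 and 8.40 against 11.58, 10.79 and 10.85. Here too Apc+/+ replicate 1 was the highest array, and Apcfl/fl replicate 3 lay 1.15 above the other tumour arrays. Cyp2c50 fell by 3.11 (SE 0.43, adjusted p 0.0470).

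Cyp2c68, Cyp2c40 and Cyp2c69 moved almost as one. Cyp2c68 read 11.94, 11.95 and 12.58 in Apcfl/fl tissue and 14.52, 14.90 and 14.62 in Apc+/+ liver. It fell by 2.55 (SE 0.29, adjusted p 0.0332). Cyp2c40, whose enzyme hydroxylates arachidonic acid, lay between 11.91 and 12.55 in Apcfl/fl tissue and between 14.55 and 14.75 in Apc+/+ liver, with a change of -2.54 (SE 0.27, adjusted p 0.0272). Cyp2c69 lay between 12.05 and 12.68 against 14.50 to 14.82, with a change of -2.42 (SE 0.27, adjusted p 0.0332). Centred on the Apc+/+ means, Cyp2c40 parted from Cyp2c68 by at most 0.12 and from Cyp2c69 by at most 0.15 on any array. Whether the 3 probes read 3 separate transcripts was not tested.

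Cyp2c67 ranged from 8.98 to 9.97 in Apcfl/fl tissue and from 11.73 to 11.92 in Apc+/+ liver, with a change of -2.35 (SE 0.32, adjusted p 0.0456). Cyp2c29, one of the main Cyp2c enzymes of mouse liver and a known target of the nuclear receptor CAR, ranged from 7.44 to 8.43 against 10.41 to 10.61, with a change of -2.32 (SE 0.28, adjusted p 0.0374). Their centred profiles parted by at most 0.21, although their upstream windows were 54.5% identical.

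The 15 Cyp2c genes of the RefSeq list all lie on chromosome 19. Cyp2c67, Cyp2c68, Cyp2c40, Cyp2c69 and Cyp2c37 follow one another with no other protein-coding gene between them. Cyp2c54 separates Cyp2c37 from Cyp2c50, and Cyp2c39 and Cyp2c38 separate Cyp2c29 from Cyp2c67. The changes of the 5 named genes from Cyp2c29 to Cyp2c69 lay between -2.32 and -2.55, and those of Cyp2c37 and Cyp2c50 were -3.25 and -3.11. The other 8 Cyp2c genes were not named in the table, and their levels were not analysed here.

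**Figure D2:**
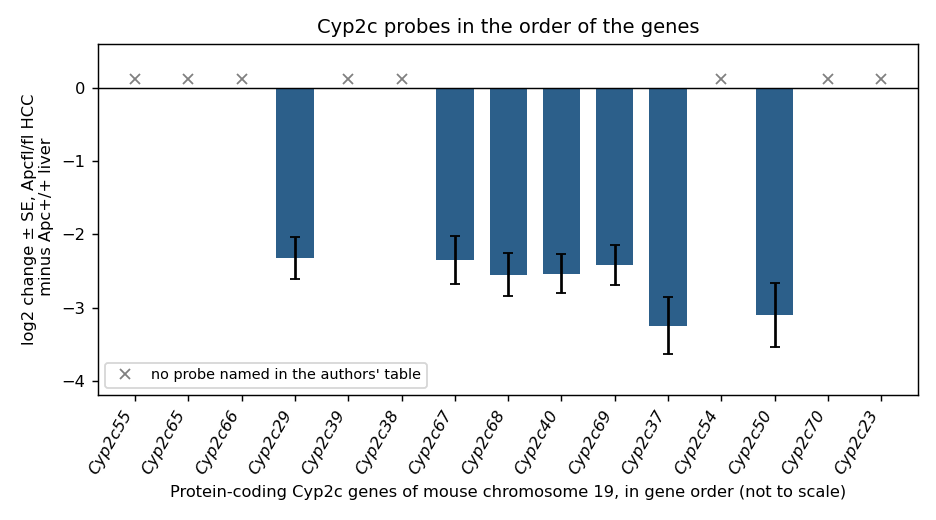
Change in log2 intensity, Apcfl/fl minus Apc+/+ (y axis), of the Cyp2c genes in their order along chromosome 19 (x axis, not to scale), as bars from 0 with whiskers of 1 SE from the limma fit and a cross for each gene the authors' table does not name. The 7 named genes lie between -2.32 and -3.25, with Cyp2c37 and Cyp2c50 the lowest.

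The Cyp2d subfamily, related to the main human drug-oxidising CYP2D enzyme, had a member on each side. Cyp2d12 ranged from 12.30 to 13.62 in Apcfl/fl tissue and from 11.13 to 11.81 in Apc+/+ liver. Its change was 1.53 (SE 0.48, adjusted p 0.194), and with replicate 3 as the only tumour sample it was 0.84. Cyp2d40 ranged from 11.20 to 11.73 in Apcfl/fl tissue and from 12.68 to 13.85 in Apc+/+ liver. Its change was -1.75 (SE 0.44, adjusted p 0.125), and Apc+/+ replicate 1 lay 1.06 above the other normal arrays. Neither was called with 5 samples.

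Cyp3a41a belongs to the Cyp3a steroid and drug hydroxylases and is a female-biased gene of mouse liver. It read 15.24, 15.29 and 14.38 in Apcfl/fl tissue and 16.14, 16.76 and 16.74 in Apc+/+ liver. All tumour arrays were below all normal ones, and replicate 3 was the lowest array of the 6. Its change was -1.75 (SE 0.38, adjusted p 0.0967). Cyp3a41b lies next to it with a nearly identical upstream window, and how far the Cyp3a41a probe also reads Cyp3a41b was not tested.

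In the Cyp4a subfamily both members, Cyp4a12a and Cyp4a12b, encode fatty acid ω-hydroxylases that make a vasoactive arachidonic acid product and are known as male-biased. Cyp4a12a read 10.45, 10.42 and 8.21 in Apcfl/fl tissue and 6.95, 6.67 and 6.74 in Apc+/+ liver. Apcfl/fl replicate 3 lay closer to the normal arrays than to the other tumour arrays. The change of Cyp4a12a was 2.36 (SE 0.63, adjusted p 0.141). With 1 tumour sample it was 3.40 without Apcfl/fl replicate 3 and 1.31 with replicate 3 alone.

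Cyp4a12b read 12.99, 12.91 and 11.19 in Apcfl/fl tissue and 8.70, 8.55 and 9.02 in Apc+/+ liver. The groups stood further apart than for Cyp4a12a, with replicate 3 again the lowest tumour array. Its change was 3.31 (SE 0.58, adjusted p 0.0651), and without Apcfl/fl replicate 3, with 1 tumour sample, it was 4.24. The genes are neighbours on chromosome 4, and their centred profiles parted most on Apcfl/fl replicate 3.

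Cyp4f16 is a member of the Cyp4f ω-hydroxylases of fatty acids and leukotrienes. It read 11.89, 11.93 and 11.28 in Apcfl/fl tissue and 8.26, 9.34 and 9.49 in Apc+/+ liver. Here the tumour arrays were close together. Apc+/+ replicate 1 lay 1.15 below the other normal arrays. The change was 2.55 (SE 0.43, adjusted p 0.0627).

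**Figure D3:**
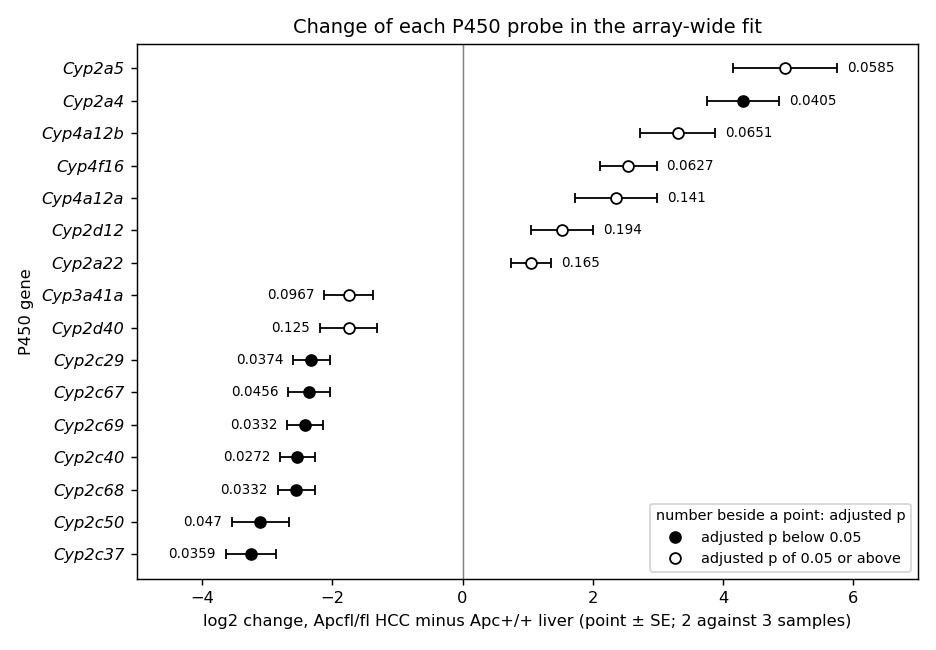
Change in log2 intensity, Apcfl/fl minus Apc+/+ (x axis), of the 16 P450 genes (y axis), with whiskers of 1 SE from the limma fit to 5 samples. The number beside a point is its adjusted p, and filled points have one under 0.05. Cyp2a5 and Cyp2a4 lie furthest to the right at 4.95 and 4.30, and the 7 Cyp2c genes lie between -2.32 and -3.25.

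The tumour arrays did not show one common size of change. For the 7 higher genes the median change over Apc+/+ was 3.65 in the mean of Apcfl/fl replicates 1 and 2 and 2.25 in replicate 3, on the authors' values. For the 9 lower genes the medians were -2.74 and -2.10. Replicate 3 lay between the other tumour arrays and the Apc+/+ mean in 15 of 16 genes, with Cyp3a41a the exception, while this held for 61.9% of the mRNA probes of the table and 35.6% of all tested probes. The gap between replicate 3 and the mean of replicates 1 and 2 was taken on the values of the fit. Its median size was 0.84 over the 16 members, 1.74 over the 7 higher and 0.69 over the 9 lower. The median was 0.61 over the mRNA probes of the table and 0.35 over all tested probes. The gap reached 2-fold in 6 of 16 members, namely Cyp2a4, Cyp2a5, Cyp2c50, Cyp2d12, Cyp4a12a and Cyp4a12b, against 26.5% of the mRNA probes of the table. With 2 tumour samples the difference between them has no test.

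**Figure D4:**
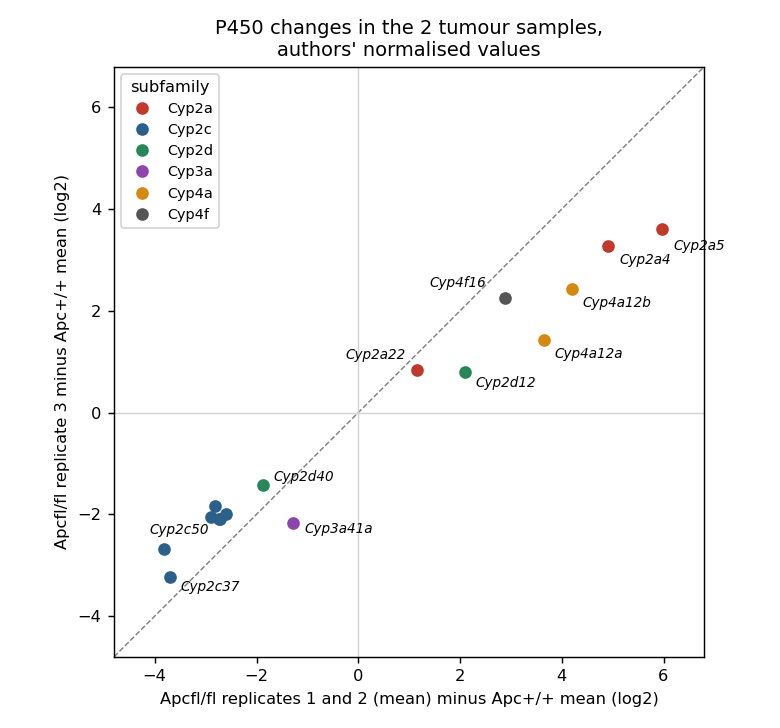
Authors' log2 change over the Apc+/+ mean for each of the 16 P450 genes, in the mean of Apcfl/fl replicates 1 and 2 (x axis) against Apcfl/fl replicate 3 (y axis), with the line of equal change. Except for Cyp3a41a every gene lies nearer to 0 in replicate 3.

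Some of the members are known for a sex bias in mouse liver, and only these were sorted by it. Of 17 listed female-biased P450 genes, 5 were named in the table. Cyp2a4 and Cyp2a22 were higher, and Cyp2c40, Cyp2c69 and Cyp3a41a lower. Both of the named male-biased genes, Cyp4a12a and Cyp4a12b of 4 listed, were higher, and neither was called. The part of sex in these values was not tested.

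Among the partners of the P450 enzymes and the enzymes of haem supply, 3 of 18 listed genes were named in the table and 0 were called by limma with 5 samples, against 1.92% of all tested probes. The methods' threshold, by which the table was chosen, was passed by 3 of 3, against 11.2% of all tested probes. Por, the reductase that feeds electrons to microsomal P450 enzymes, had a change of -1.12 (adjusted p 0.194). Cpox, an enzyme of haem synthesis, had a change of -2.05 (adjusted p 0.116), and Blvrb, which reduces biliverdin, one of 1.24 (adjusted p 0.0970).

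Of the transcription factors and receptors that control hepatic P450 genes, 6 of 31 listed genes were named, by 7 probes. All 7 were lower, with a median change of -1.36 against 1.05 over the mRNA probes of the table, of which 57.3% were higher, and 0.06 over all tested probes. Of the 7, 1 was called, against 0.896% of all tested probes called lower. That was Nr1i3, the nuclear receptor CAR, a known inducer of Cyp2b and Cyp2c genes. It read 9.16, 9.20 and 9.39 in Apcfl/fl tissue and 12.69, 12.46 and 12.47 in Apc+/+ liver. The arrays within each group were close together, replicate 3 included. Nr1i3 fell by 3.33 (SE 0.20, adjusted p 0.0137). The others were the glucocorticoid receptor Nr3c1 (change -1.98, adjusted p 0.0685), the liver factor Cebpa (-1.56, adjusted p 0.121), the oxysterol receptor Nr1h3 (-1.21, adjusted p 0.0699), the repressor Bcl6 (-1.21, adjusted p 0.0589) and the growth hormone receptor Ghr. The 2 Ghr probes had changes of -1.36 and -1.17 with adjusted p of 0.197 and 0.154.

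Of the other oxidation, ester-cleaving and carbonyl-reducing enzymes of liver, 8 of 33 listed genes were named, by 10 probes. Lower values were found for 8 probes and higher for 2, with a median change of -1.87. Of the 10, 2 were called, both lower, against 0.896% of all tested probes called lower. These were Akr1c6, an oxidoreductase of steroids, which fell by 2.42 (SE 0.25, adjusted p 0.0262), and the carboxylesterase Ces1d, which fell by 1.70 (SE 0.24, adjusted p 0.0475). The higher ones were Ephx1, the microsomal epoxide hydrolase (change 2.16, adjusted p 0.213), and Maoa (1.07, adjusted p 0.122). The gene sets of this and the preceding paragraphs were found among probes the authors had chosen for a difference, so their direction is no independent evidence.

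**Figure D5:**
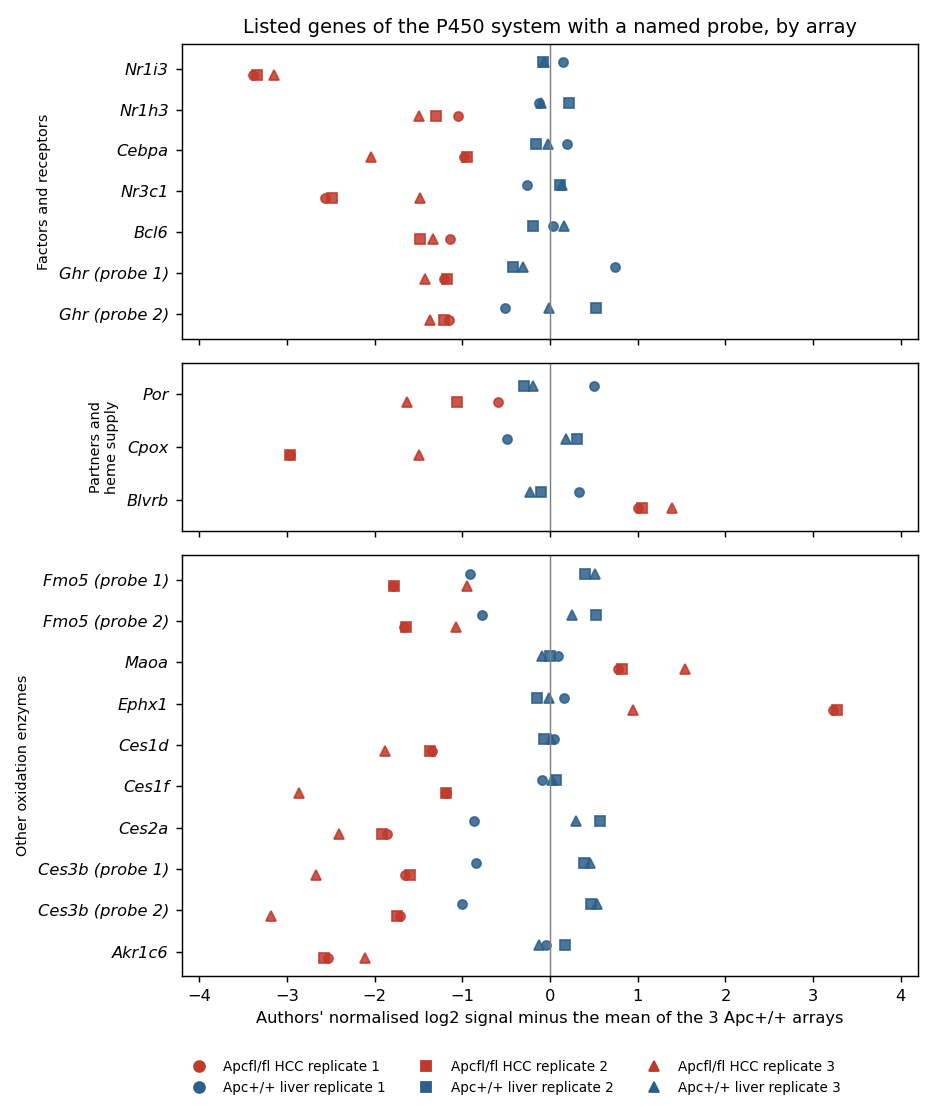
Authors' normalised log2 intensity minus the mean of the 3 Apc+/+ arrays (x axis) for the listed factors and receptors, partners and haem enzymes, and other oxidation enzymes (y axis, 1 row per probe), with a symbol for each Apcfl/fl (red) and Apc+/+ (blue) array. The symbols of Nr1i3 form 2 tight groups. Those of Ephx1 lie apart in the tumour samples, at 3.25 in the mean of Apcfl/fl replicates 1 and 2 and at 0.94 in replicate 3.

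Few cell type markers were named, and Spp1 was the one with called probes. Of 14 hepatocyte markers 2 were named, Apoa1 (change -2.38, adjusted p 0.114) and Cebpa, and Apoa1 still read 14.03 to 15.03 on the Apcfl/fl arrays. Of 7 bile duct markers 1 was named, Spp1, whose 5 probes were all higher. Of these 4 were called, against 1.03% of all tested probes called higher. Of 12 leukocyte markers 2 were named, Cd74 and Adgre1, with 3 probes whose median change was 1.58 and none called. Of 9 fibroblast and stellate markers only Lrat was named (-1.52, adjusted p 0.165), with a mean in Apcfl/fl tissue below the brightest negative control, and of 6 endothelial markers only Pecam1 (-1.46, adjusted p 0.0924). Summed levels of whole marker lists could not be formed, since a marker carries a name here only where the table lists it. The part of cell type in the P450 differences was not tested.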

How the data were processed

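The P450 genes, the gene lists and the motifs were chosen with earlier results of these data known. Liver RNA was labelled with Cy3 and hybridised to the Arraystar mouse lncRNA array V2.0, and the deposited scanner files hold, per spot, the linear intensity after background subtraction as the authors extracted it with Agilent Feature Extraction (version 11.0.1.1 in the submitters' processing notes). The authors' table holds quantile normalised log2 values of 4197 distinct probes, selected at an unadjusted p of at most 0.05 and a fold of at least 2. Its columns of fold changes and p-values, the authors' own comparison, were not used.

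Accessions of the mRNA probes were matched to symbols with a RefSeq gene list of GRCm38.p6. Control spots and outlier flags were left out, spots of a probe were averaged, and log2 intensities of 59631 probes were quantile normalised, as in the study's methods. Probes well above background on at least 3 of 6 arrays were tested, which held for 45640. limma (version 3.58.1, R 4.3.3) compared Apcfl/fl with Apc+/+, two-sided, lmFit and eBayes, no covariate, with Benjamini-Hochberg adjustment over all tested probes. Each P450 gene had 1 probe and kept its own value. The authors' values and the fit's differed in their change by at most 0.22. All 16 genes were named with their change, and per-array values were given for the 4 marker genes Cyp2a4, Cyp3a41a, Cyp4a12a and Cyp4a12b and for up to 4 further genes per family with the largest change. Upstream windows were aligned with Biopython 1.88. The fitting steps were tested on simulated data. The number of arrays limits the precision. Where the design named the mean signal for normexp correction, the files gave the median signal, which was used. The alternatives are listed in the closing section.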

Additional observations from a re-analysis of the deposited data

How the results depend on the processing

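The authors' table holds probes chosen for a difference on these arrays, so the counts describe them and do not test them. With 2 samples against 3, and with 1 scan time and slide rows that share only Apc+/+ replicate 1 with the tumour arrays, the adjusted p-values depend on single arrays. Every one of the 16 P450 changes kept its direction under each alternative run, and 14 to 16 stayed at 2-fold or more. The arrays of the groups did not overlap for any member, so leaving out or averaging arrays could not reverse a direction. Nothing is read from the kept directions. The count of P450 probes called by limma, 8 with 5 samples, ranged from 0 to 8 with 1 array left out (0 without Apc+/+ replicate 1, 2 or 3, when 14 to 15 had an unadjusted p below 0.05 with a 2-fold difference, and 7 without Apcfl/fl replicate 3, with 1 tumour sample assumed to vary like the Apc+/+ arrays). It was 0 with no filter on dim probes (16 unadjusted), 0 with the slide row as a block (13), 0 with Apc+/+ replicates 2 and 3 averaged (15) and 0 with Apcfl/fl replicate 3 alone, an alternative chosen after seeing the data (13). It was 11 with normexp, with the filter on all arrays and with trend and robust eBayes, 4 of them higher each time, and 9 with scaling to the 75th percentile. It was 15 with 6 arrays as 6 samples, 16 at the methods' threshold and 16 by the methods' t-test, of which 8 passed after Benjamini-Hochberg adjustment. For the other listed probes, 7 called, the leave-one-out range was 0 to 7, and the counts were 1 with no filter, 12 with the filter on all arrays, 11 with trend and robust eBayes, 19 with 6 arrays, 0 with the slide row, 0 with Apc+/+ replicates 2 and 3 averaged, 0 with Apcfl/fl replicate 3 alone, 30 at the methods' threshold and 29 by the methods' t-test. For all tested probes, 878 called, the leave-one-out range was 0 to 973, and the counts were 1651 with normexp, 277 with no filter, 1966 with the filter on all arrays, 1900 with trend and robust eBayes, 3441 with 6 arrays, 0 with the slide row (3964 unadjusted), 0 with Apc+/+ replicates 2 and 3 averaged (4534), 0 with Apcfl/fl replicate 3 alone (5978), 5118 at the methods' threshold, 4802 by the methods' t-test and 1629 after its adjustment. Between arrays of the same replicate number the correlations of deviations were 0.06, -0.07 and 0.04. Because Apcfl/fl replicates 1 and 2 were counted as 1 sample, these values cannot decide whether the replicate numbers pair the samples. With the replicate block on 6 arrays, 9 P450 probes, 8 other listed probes and 1075 of all probes were called. Leaving out an Apc+/+ array or Apcfl/fl replicate 3, or averaging Apc+/+ replicates 2 and 3, also lowers the number of samples. The cause of these shifts was not tested.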
